A study of Homo sapiens with 3 samples.

Results

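Chromosome 19 carries a large share of the human genes for zinc finger proteins of the KRAB family, lined up in tandem clusters. The peaks described here are all those that overlap 5 of these clusters on hg19, whatever their width or score: 19p13.2 from 11700001 to 12700000, 19p12 from 19700001 to 24600000, 19q13.12 from 36600001 to 38400000, 19q13.31 from 44300001 to 45000000 and 19q13.41 from 52300001 to 54000000. The clusters are called by the band where they mainly lie, and they span 10.1 Mb together. They held 2799 of the 249362 peaks of the series, 1356 in the untreated library and 1443 in the DHT library.

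The series mapped histone H3 trimethylated at lysine 36 (H3K36me3) by chromatin immunoprecipitation sequencing in LNCaP, an established line of prostate cancer cells that respond to androgen. The untreated library is from cells labelled as given no treatment. The DHT library is from cells exposed for 4 h to 100 nM dihydrotestosterone, a strong androgen, in RPMI labelled red-free, so hormone and medium cannot be told apart. Both used the antibody ab9050, and both conditions have 1 library, so no test between them was possible and every interval below covers counting error only, with peaks treated as independent. How far 2 untreated libraries would differ is unknown, and the depth behind each peak is unknown too.

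H3K36me3 is laid down over gene bodies by SETD2, an enzyme that travels with elongating RNA polymerase II, so the mark follows transcription. KRAB zinc finger proteins are repressors that bind DNA through arrays of zinc fingers, many of them at transposable elements, and recruit TRIM28, which brings the H3K9 methyltransferase SETDB1. Their own genes are unusual in that their last exons, which encode the finger arrays, can carry H3K9me3 and H3K36me3 together. In the gene order of RefSeq on GRCh38.p14, the 5 runs of neighbouring genes known from these bands hold 160 protein-coding genes, of which 150 have ZNF or ZFP names. The 19p13.2 run between ACP5 and MAN2B1 goes from ZNF627 to ZNF791, with 24 such names among its 24 genes. The 19p12 run from ZNF101 to ZNF254 has 37 of 39 and includes ZNF91, a repressor of SVA retrotransposons. The 19q13.12 run from ZNF565 to ZNF573 has 29 of 30, the 19q13.31 run from ZNF283 to ZNF180 has 20 of 20, and the 19q13.41 run from ZNF577 to ZNF331 has 40 of 47. Peaks were not assigned to these genes, since the order is from another build and the ends of the runs need not be the ends of the intervals.

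Peaks stood closer together in all 5 clusters than on the rest of the chromosome taken as a whole. The comparison is with chromosome 19 outside the clusters up to 56000000, 45.9 Mb in 6 stretches, and the distal cluster beyond is left out. In untreated cells the clusters held 134 peaks per Mb and the rest 53.5, a ratio of 2.51 (95% interval 2.35 to 2.68). After DHT they held 143 and 68.9 per Mb, a ratio of 2.07 (1.95 to 2.21). The 19q13.12 cluster was the densest, with 199 peaks per Mb untreated and 224 after DHT, followed by 19q13.41 with 192 and 223. The 19p13.2 cluster had 161 and 166 per Mb, and 19q13.31 had 159 and 124. The long 19p12 cluster next to the centromere had the fewest, 81.4 and 83.1 per Mb, which was 1.52 times the rest untreated (1.37 to 1.69) and 1.205 times after DHT (1.08 to 1.34). The rest was uneven. Its stretch up to 11700000 held 67.2 and 83.2 per Mb, and that from 12700001 to 19700000 held 65.4 and 86.7. After DHT both lay above 19p12. The stretch from 24600001 to 36600000 held the fewest, 37.0 and 45.8 per Mb, but it takes in most of a 3.18 Mb block without peaks. Next was that from 54000001 to 56000000, with 41.5 and 52.5 per Mb. Densities were not computed without that block, so its length counts in the ratios to the rest and in this order of stretches. Neighbouring peaks were a median of 2489 bp apart in the clusters and 6454 bp in the rest of the chromosome in untreated cells, and 2446 and 5166 bp after DHT.

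The peaks were narrower than those of the rest of the chromosome. Median width over the 5 clusters was 434.5 bp untreated and 406 bp after DHT, against 769 and 656 bp on the rest of the chromosome. Over the whole genome the medians were 374 and 354 bp, so cluster peaks were wider than the lists as a whole. Within single clusters the untreated median ran from 375 bp in 19q13.31 to 503 bp in 19q13.41, and the DHT median from 369 to 437 bp in the same 2 clusters, so every cluster lay below the rest in both libraries. The rest was not uniform: its stretch from 24600001 to 36600000 had medians of 451.5 and 388 bp, below those of 19q13.12 and 19q13.41. Wide peaks were scarce, although H3K36me3 is known for long domains over transcribed genes. Only 8 of 1356 untreated peaks were 2 kb wide or more, or 0.590% (Wilson interval 0.299% to 1.16%), and 5 of 1443 after DHT, or 0.347% (0.148% to 0.809%). On the rest of the chromosome the shares were 12.7% and 12.2%, and over the genome 2.58% and 2.05%. The 19q13.31 cluster had none in either library. With 0 of 111 and 0 of 87 peaks, the Wilson interval still reaches 3.35% and 4.23%.

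**Figure D1:**
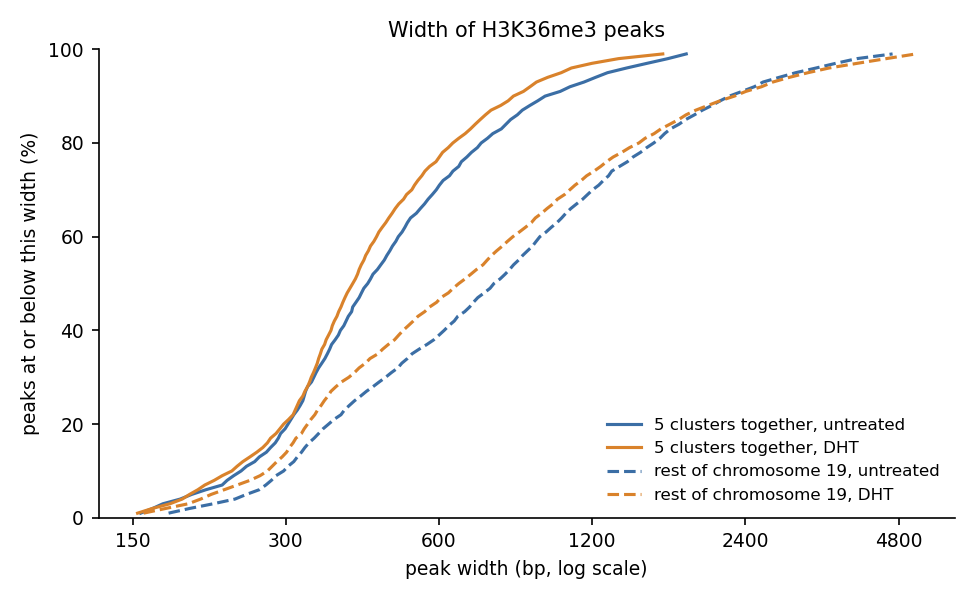
Cumulative percentage of peaks (vertical axis) by peak width in bp (horizontal log axis), percentiles 1 to 99, for the 5 clusters together (solid) and the rest of chromosome 19 (dashed) in the untreated (blue) and DHT (orange) libraries. Both cluster curves lie left of both rest curves over nearly the whole range, and the median is 434.5 and 406 bp in the clusters against 769 and 656 bp in the rest.

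The clusters were more covered than the rest of the chromosome in untreated cells and about as covered after DHT. In untreated cells peaks covered 742 kb of the clusters, 7.34% of their length, against 5.73% of the rest. After DHT they covered 711 kb, 7.03%, against 7.05% of the rest. The rest includes a stretch of 3.18 Mb from 24547643 to 27731697 with no peak in either library, around the centromere, and without it the rest stood at 6.15% and 7.57%. The rest was also uneven. Its stretches up to 11700000 (7.99% and 10.6%) and from 12700001 to 19700000 (8.295% and 10.2%) were more covered than the pooled clusters in both libraries. Its other stretches were less covered, the least being 24600001 to 36600000 (2.73% and 2.95%). The clusters themselves differed more from each other than from the rest. Coverage was 12.2% untreated and 11.8% after DHT in 19q13.41, 11.38% and 11.72% in 19q13.12, 8.08% and 8.33% in 19p13.2, 7.33% and 5.17% in 19q13.31, and 4.03% and 3.67% in 19p12. That order was the same in both libraries.

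Across the clusters the 2 libraries traced a like outline. In windows of 100 kb, coverage over the 101 windows of the clusters had Pearson r = 0.941 and Spearman rho = 0.947 between the libraries, as against r = 0.909 and rho = 0.939 over 459 windows of the rest. Windows share a library and its depth, so these are descriptions. Within every single cluster rho was below the pooled value. It was 0.750 in both 19q13.31 and 19q13.41, over 7 and 17 windows, and 0.785 in 19q13.12 over 18. In 19p13.2 it was 0.879 over 10 windows and in 19p12 0.9365 over 49. The most covered window of 19q13.12 was the same in both libraries, from 37100001 to 37200000, at 18.6% untreated and 20.3% after DHT. That of 19p13.2 was also shared, from 12100001 to 12200000, at 13.21% and 13.80%, and so was that of 19q13.31, from 44600001 to 44700000, at 9.85% and 5.95%. The other 2 clusters had different leading windows. In 19q13.41 it was 52800001 to 52900000 in untreated cells, at 22.4% against 16.8% after DHT, and 53000001 to 53100000 after DHT, at 17.8% against 11.66% untreated. In 19p12 it was 24200001 to 24300000 in untreated cells, at 14.2% against 9.13% after DHT, and 19700001 to 19800000 after DHT, at 13.9% against 11.4% untreated.

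The 19p12 cluster was the patchiest. It had 12 windows of 49 without a covered base in untreated cells and 12 after DHT, of which 9 were the same, and the other 4 clusters had no such window. Its windows below 2% in both libraries numbered 22, and 10 of them lay in a row from 22100001 to 23100000, which held 8 untreated and 6 DHT peaks. Elsewhere 1 window was below 2% in both, the last of 19q13.12, from 38300001 to 38400000. Inside that row, 368 kb from 22469769 to 22837450 had no peak of either library. The longest peak-free stretches of the other clusters were 36.4 kb in 19p13.2, 41.7 kb in 19q13.31, 55.4 kb in 19q13.12 and 69.5 kb in 19q13.41. Other parts of 19p12 were well covered, with 6 untreated and 4 DHT windows at 10% or more.

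**Figure D2:**
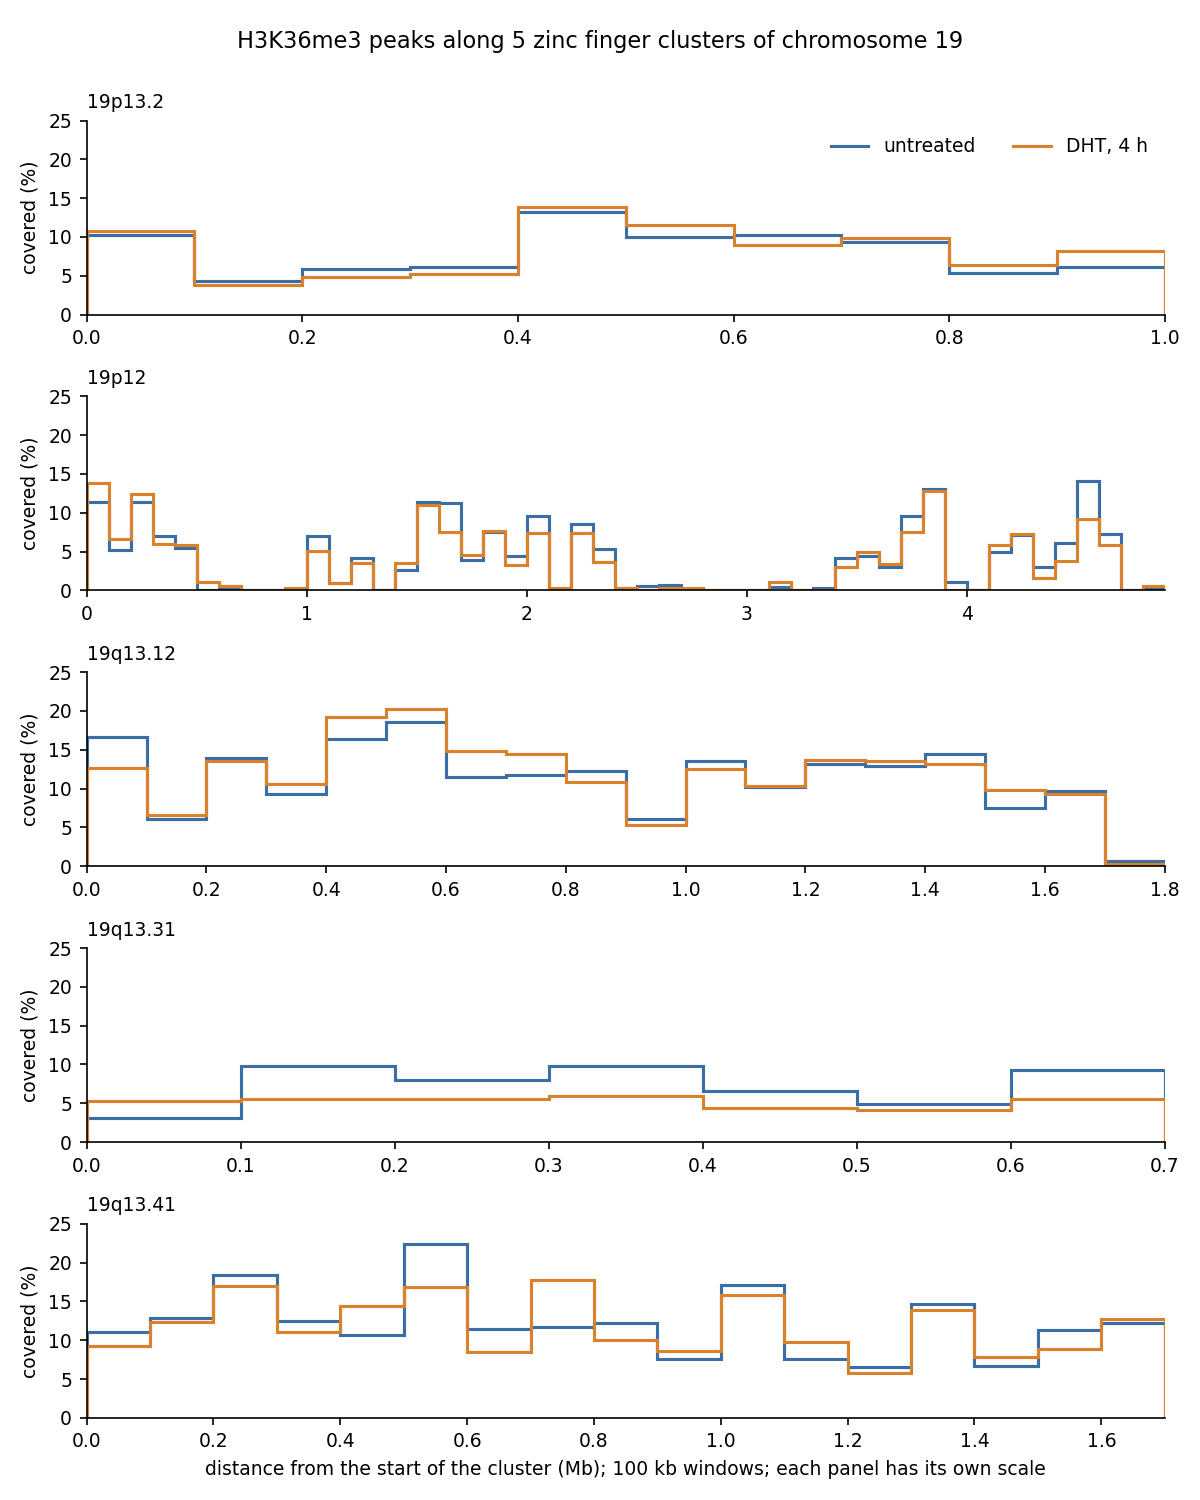
Percentage of each 100 kb window covered by peaks (vertical axis) against the distance from the start of the cluster in Mb (horizontal axis, scaled to each cluster), for the untreated (blue) and DHT (orange) libraries. The 19p12 panel has windows at 0 that the others lack, and in 19q13.31 the DHT line lies below the untreated one in 6 of 7 windows.

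Covered length in the clusters differed between the libraries by less than its counting interval, while the rest of the chromosome was more covered after DHT. The DHT over untreated ratio was 0.958 over the 5 clusters (0.877 to 1.046) and 1.23 over the rest (1.14 to 1.32), so the clusters stood at 0.779 of the rest (0.695 to 0.873). Over the genome the ratio was 1.025 (1.014 to 1.037), inside the interval of the clusters and 0.833 of the rest, so it was the rest of chromosome 19 that stood apart from the lists as a whole. This interval sets the clusters apart from the rest by counting error, not by any spread between libraries. Whether the cluster ratio lies below or above 1 depended on the list: it was 1.10 when peaks of each list were joined across gaps of up to 5 kb, with the rest then at 1.37, and 0.884 (0.783 to 0.997) in the higher-scoring 50% of each list, where the interval excludes 1. The 6 stretches of the rest had ratios of 1.02 to 1.33. The first, up to 11700000 and including the gene-dense end of the short arm, had the highest, and without the first 5 Mb the rest was still at 1.18. The rise was not seen beyond counting error in every stretch. The interval included 1 from 24600001 to 36600000 (1.08, 0.90 to 1.30) and from 38400001 to 44300000 (1.14, 0.94 to 1.39). It also did from 54000001 to 56000000 (1.02, 0.67 to 1.57).

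Among the clusters, 19q13.31 had the lowest ratio of covered length. Its covered length was 51.3 kb untreated and 36.2 kb after DHT, a ratio of 0.705 (0.513 to 0.969). This interval included 1 when peaks were joined at 1 kb (0.720, 0.457 to 1.13) or 5 kb (0.712, 0.354 to 1.43) and with peaks under 1 kb alone (0.782, 0.573 to 1.065). The ratio was 1.03 in 19p13.2 (0.797 to 1.33), 1.03 in 19q13.12 (0.869 to 1.22), 0.969 in 19q13.41 (0.812 to 1.16) and 0.909 in 19p12 (0.771 to 1.07). Of the 10 pairs of clusters, the interval of the difference excluded 1 in 1, between 19q13.31 and 19q13.12 (0.685, 0.478 to 0.981), with no adjustment for the number of pairs. Against the rest of the chromosome the interval excluded 1 for 19p12, at 0.739 (0.617 to 0.884), for 19q13.31, at 0.573 (0.414 to 0.794), and for 19q13.41, at 0.787 (0.651 to 0.952). It included 1 for 19p13.2, at 0.837 (0.641 to 1.094), and for 19q13.12, at 0.837 (0.696 to 1.006). The 1 Mb on either side of 19q13.31 had a ratio of 1.55 (1.05 to 2.28), so the cluster differed from its own surroundings too, at 0.455 of their ratio (0.276 to 0.750). That rests on its far side, from 45000001 on: against the 1 Mb before it the value was 0.637 (0.321 to 1.265). With the 1 Mb before 19p12, where the other side has no peaks, the contrast was 0.648 (0.438 to 0.959). For 19p13.2, 19q13.12 and 19q13.41 it was 0.887, 0.922 and 1.001, with intervals that include 1. These flanks were chosen after the data were seen.

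**Figure D3:**
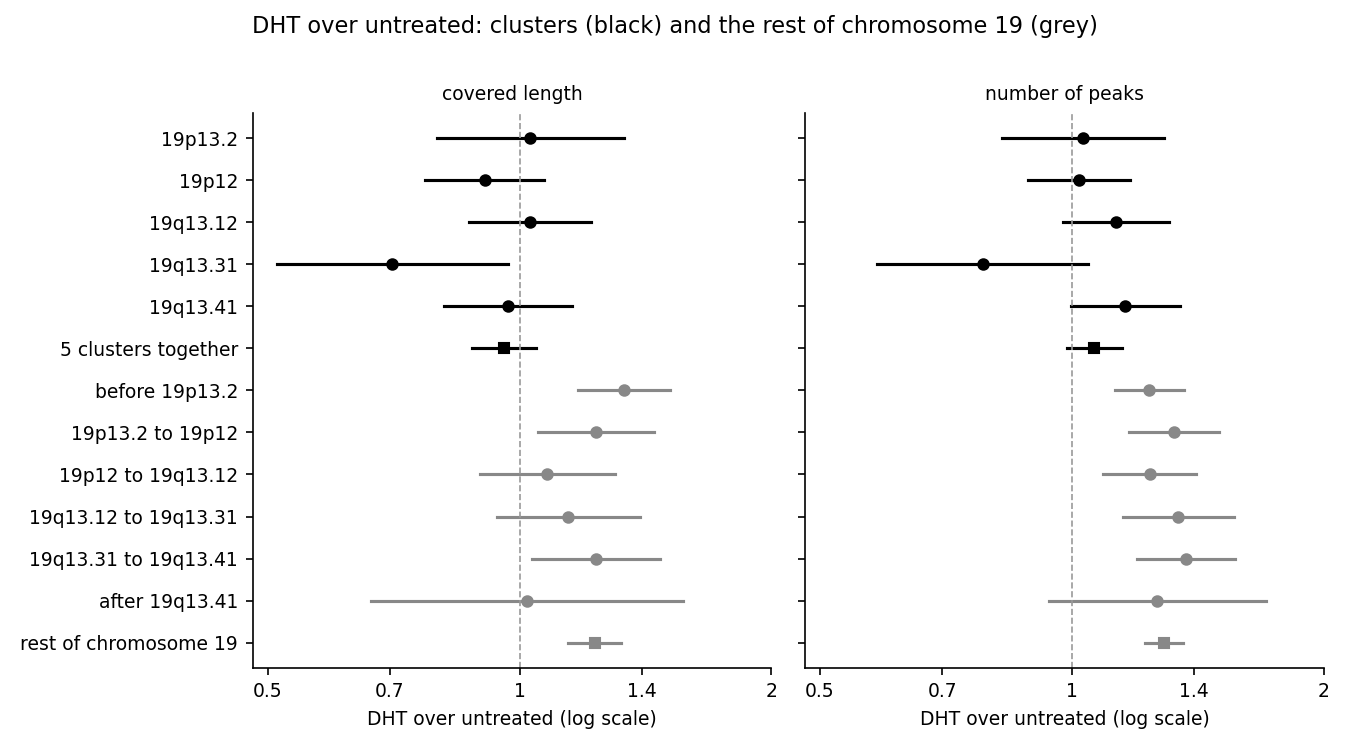
DHT over untreated ratio (horizontal log axis) of covered length (left) and of the number of peaks (right) for each cluster (black) and each stretch of chromosome 19 between them (grey). Points are ratios, squares are pooled values and lines are 95% counting intervals. The 5 clusters together lie at 0.958 and 1.06, and the rest at 1.23 and 1.29.

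The ratio of peak numbers was above that of covered length in all 5 clusters, by the least in 19p13.2. In 19q13.41 the list had 327 untreated and 379 DHT peaks, a ratio of 1.16 (0.997 to 1.35), while covered length was 207 and 200 kb. In 19q13.12 it had 358 and 404, a ratio of 1.13 (0.976 to 1.31), over 205 and 211 kb. Peak numbers were 161 and 166 in 19p13.2, 399 and 407 in 19p12, and 111 and 87 in 19q13.31, where the ratio was 0.784 (0.585 to 1.047). Over all 5 clusters the number ratio was 1.06 (0.987 to 1.15) and over the rest 1.29 (1.22 to 1.36), with 1.121 over the genome.

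In the clusters, covered length was lower after DHT in the widest class of peaks and higher in that of 300 to under 600 bp. Peaks were classed by width in each library separately, so a peak that differs in width between the libraries can change class. Peaks of 1 kb or more numbered 128 in untreated cells and 86 after DHT, and their covered length was 183 and 118 kb, a ratio of 0.645 (0.484 to 0.861). Their share of peaks was 9.44% and 5.96%. It was lower after DHT over the genome too, at 10.3% and 7.82%, and on the rest of the chromosome, at 37.9% and 33.0%. Peaks of 300 to under 600 bp covered 294 and 338 kb, a ratio of 1.15 (1.04 to 1.28). The intervals included 1 below 300 bp (1.10, 0.9285 to 1.30) and at 600 bp to under 1 kb (0.917, 0.770 to 1.09). On the rest of the chromosome every width class covered more after DHT, with ratios of 1.62 below 300 bp, 1.48 at 300 to under 600 bp, 1.13 at 600 bp to under 1 kb and 1.201 at 1 kb or more. The contrast was plainest in 19q13.41, which had 49 peaks of 1 kb or more untreated and 28 after DHT (covered length ratio 0.537, 0.331 to 0.869) beside 62.1 and 84.4 kb covered by peaks of 300 to under 600 bp (1.36, 1.09 to 1.69). In the same order, the numbers of 1 kb or more were 37 and 27 in 19q13.12, 21 and 14 in 19p12, 7 and 3 in 19q13.31, and 14 and 14 in 19p13.2. With peaks under 1 kb alone, the ratio of the 5 clusters was 1.06 and that of the rest 1.30. Among cluster peaks of all widths, 41 untreated ones met several DHT peaks and 25 DHT ones met several untreated peaks. On the rest of the chromosome these numbers were 116 and 55. Whether a wide peak of one library was split into several in the other by the calling was not tested.

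At the scale of 100 kb few cluster windows differed by 1.5-fold. Windows were compared where either library covered 2 kb or more, and 2 of 78 cluster windows were at least 1.5-fold higher after DHT and 7 of 78 lower, or 2.56% and 8.97%. Over all windows of the genome the shares were 14.3% and 12.6%, and over the rest of chromosome 19 they were 29.6% (88 of 297) and 6.06% (18 of 297). The 2 higher windows were 44300001 to 44400000 in 19q13.31, at 3.06% untreated and 5.24% after DHT, and the leading DHT window of 19q13.41. The lower ones were 3 in 19q13.31 and 4 in 19p12. Those of 19q13.31 were 44400001 to 44500000 (9.74% and 5.48%), 44600001 to 44700000 (9.85% and 5.95%) and 44900001 to 45000000 (9.26% and 5.48%). Those of 19p12 were 21300001 to 21400000 (11.2% and 7.46%) and a row of 3 from 24000001 to 24300000, at 2.95% and 1.57%, 6.09% and 3.77%, and 14.2% and 9.13%. At 2-fold, 0 of 78 cluster windows were higher or lower, against 42 and 8 of 297 in the rest and 5.87% and 4.04% over the genome. The share of lower cluster windows was 15.7% (11 of 70) in the higher-scoring 50% of each list, with 18.6% over the genome. In windows of 50 kb it was 14.1% (18 of 128), with 15.2% over the genome. Raising the floor from 2 to 5 kb turned this order, to 8.82% lower in the clusters and 7.80% over the genome. Higher windows were then still fewer in the clusters, at 2.94% against 12.1%. Peaks covered only 2.08% of the genome untreated and 2.13% after DHT, far less than of the clusters. The part of sparse coverage in the genome shares was not tested.

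When peaks of the pooled lists were joined across gaps of up to 5 kb, the clusters held 364 blocks. Blocks of at least 10 kb took up 28.2% of the clusters and 10.4% of the rest, and peaks filled less of them: 19.6% untreated and 19.1% after DHT in the clusters, 27.2% and 32.9% in the rest. In 19q13.12 and 19q13.41 such blocks took up 47.1% and 47.3%. The longest lay in 19q13.41, from 53938573 to 54003260, with 9233 bp covered untreated and 9300 bp after DHT, and it ends past the edge of the interval. In 19q13.12 the longest ran from 37100774 to 37163769, with 12738 and 14106 bp, and in 19p12 from 21327033 to 21374299, with 9575 and 6522 bp. That of 19p13.2, from 12688283 to 12729604, lies mostly beyond the end of the interval and had 10002 and 8677 bp. Inside the interval, the last window of 19p13.2 had 6176 and 8120 bp. The one of 19q13.31, from 44730051 to 44753342, had 2620 and 2523 bp. Peaks of both libraries stood in 260 of the 364 blocks, untreated peaks alone in 47 and DHT peaks alone in 57. The shared blocks were 71.4% of the total, against 61.2% (1033 of 1689) in the rest, where 222 blocks were untreated only and 434 DHT only. In 19p12, which had 134 of the cluster blocks, the share was 59.0%, below the rest. In the other clusters it was 73.0% to 86.2%. Cluster blocks were also longer, at a median of 4981 bp against 2346 bp, and the part of length in these shares was not tested. The share over the genome was not computed.

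Of the 181 blocks of at least 5 kb, 79 were more covered after DHT and 102 less, and 1 cluster leaned the other way. Blocks outside the clusters were not counted in this way, so whether the split is particular to the clusters is unknown. In 19q13.12, 29 were more covered and 18 less. Less covered blocks were the majority in 19p13.2 (17 of 27), 19p12 (30 of 53), 19q13.41 (24 of 39) and 19q13.31 (13 of 15). The largest gain was in 19q13.41, from 53036158 to 53091022, where 13 peaks over 9316 bp stood against 22 peaks over 16200 bp after DHT. Next was a block from 36590217 to 36604979 that lies mostly outside the edge of 19q13.12, with 1697 and 5196 bp. The others were 52706386 to 52732684 (6180 and 9310 bp) and 53202509 to 53231812 (3154 and 6173 bp) in 19q13.41, and 37282844 to 37325199 (7170 and 9013 bp) in 19q13.12. The largest loss was also in 19q13.41, from 52850754 to 52883556, with 11784 bp untreated and 8357 bp after DHT. It was followed by the longest 19p12 block given above and by 44932381 to 44950240 in 19q13.31, where 11 peaks over 5543 bp stood against 4 over 2515 bp. The last 2 were 24230173 to 24263338 in 19p12 (7634 and 4645 bp) and 37747522 to 37759659 in 19q13.12 (4396 and 1769 bp).

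Most cluster peaks met a peak of the other library. The share was 58.0% of untreated peaks (55.4% to 60.6%) and 55.6% of DHT peaks (53.1% to 58.2%), against 52.3% and 48.5% over the genome. On the rest of the chromosome it was 63.2% (61.3% to 65.1%) and 51.2% (49.5% to 53.0%), so untreated cluster peaks were met less often and DHT cluster peaks more often than others of the chromosome. The untreated order turned when peaks were joined at 5 kb, at 78.1% in the clusters and 72.6% in the rest. In the higher-scoring 50% of each list the DHT shares were 50.9% and 49.6%, with overlapping intervals. Among the clusters, 19q13.12 had the highest untreated share, 65.9%, and 19q13.31 the lowest, 44.1% (35.3% to 53.4%). For DHT peaks 19q13.31 had 62.1% (51.6% to 71.6%), an interval that holds the 59.7% of 19q13.12 and reaches down to the 51.8% to 53.8% of the others. In that cluster 49 of 111 untreated and 54 of 87 DHT peaks were met, so 62 untreated peaks had no counterpart and 33 DHT peaks had none.

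Overlap was higher for wider peaks. At like width cluster peaks were met as often as others or more, while at like score the order depended on the library and the score. Of untreated peaks of 300 to under 600 bp, 58.2% were met in the clusters (54.5% to 61.9%) and 44.4% in the rest (40.7% to 48.1%). At 600 bp to under 1 kb the shares were 69.8% and 70.2%, and at 1 kb or more 93.0% (87.2% to 96.3%) and 84.4% (81.9% to 86.6%). For DHT peaks they were 39.1% and 27.3% below 300 bp, 53.4% and 38.37% at 300 to under 600 bp, 73.4% and 58.8% at 600 bp to under 1 kb, and 82.6% and 69.3% at 1 kb or more. Peaks are denser in the clusters, which by itself brings more of them onto each other, and its part in these shares was not tested.

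**Figure D4:**
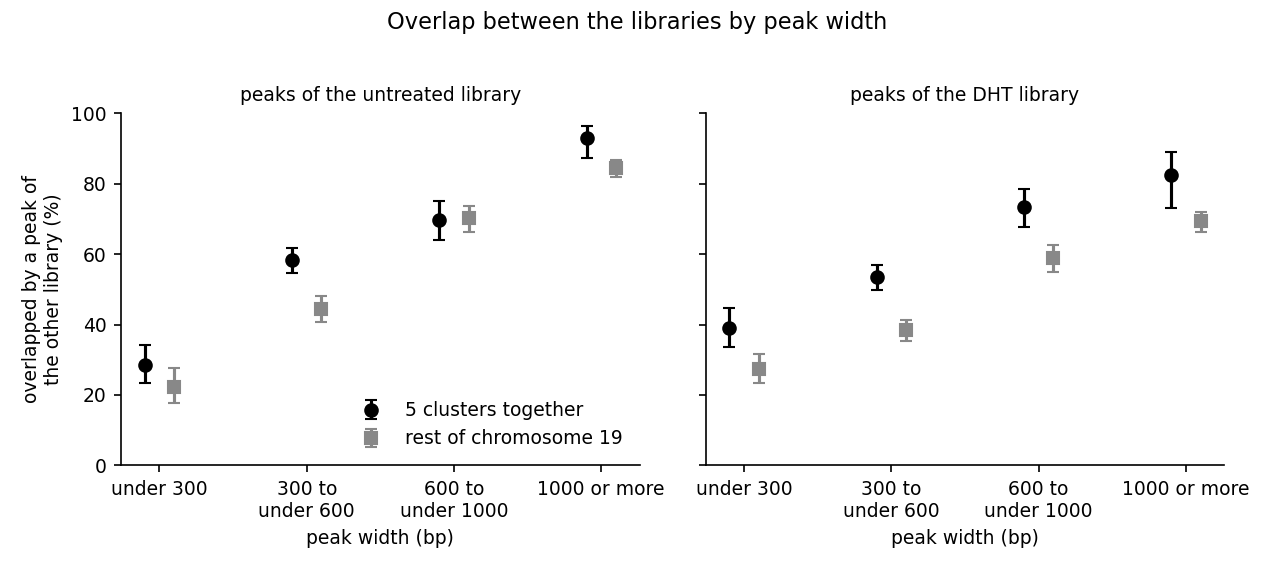
Percentage of peaks overlapped by at least 1 bp by a peak of the other library (vertical axis) in 4 classes of peak width in bp (horizontal axis), for untreated peaks (left) and DHT peaks (right), in the 5 clusters together (black circles) and the rest of chromosome 19 (grey squares), with 95% Wilson intervals. The cluster value is the higher one in every class except untreated peaks of 600 bp to under 1 kb, at 69.8% against 70.2%.

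Peaks that met 1 to 1 numbered 703 pairs in the clusters. Their centres were a median of 54 bp apart at a median untreated width of 499 bp, against 122.5 bp and 941 bp for 1342 pairs in the rest. Overlap itself keeps centres near each other. The DHT peak was the narrower one in 436 cluster pairs and the wider one in 264. In the rest these numbers were 710 and 632. Pairs over the genome were not counted, so whether this is particular to the clusters is unknown. Median peak width over the genome was also lower after DHT, at 354 bp against 374 bp untreated. By cluster, narrower and wider DHT peaks numbered 126 and 66 in 19p12, 118 and 62 in 19q13.41, 128 and 89 in 19q13.12, 28 and 16 in 19q13.31 and 36 and 31 in 19p13.2. The scores of paired peaks went together only loosely, with rho = 0.376 in the clusters and 0.437 in the rest.

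The score of a peak is the authors' value on an unstated scale, so peaks were ranked only within their own list. Cluster peaks ranked slightly above the middle of the lists in untreated cells: 54.7% of untreated peaks (52.1% to 57.3%) and 52.1% of DHT peaks (49.5% to 54.7%) scored above the median of their list, 81.2 and 85.7. On the rest of the chromosome these shares were 50.3% and 49.3%. In the top 25% of their list by score stood 29.7% of untreated cluster peaks (27.4% to 32.2%) and 27.1% of DHT ones (24.9% to 29.5%), against 25.8% and 26.4% in the rest. The 19p13.2 cluster was the weakest, with 42.2% and 44.0%. The 19q13.41 cluster had 59.6% (54.2% to 64.8%) untreated and 53.6% (48.5% to 58.5%) after DHT.

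In 3 of 5 clusters the peak with the highest score was at the same place in both libraries. In 19p12 it lay from 20118126 to 20119620 untreated, with a score of 928, and from 20118508 to 20119561 after DHT, with a score of 906. Only 0.0221% and 0.0698% of the peaks in these lists scored higher. In 19q13.12 it lay from 38187361 to 38188443 (score 800) and from 38187387 to 38188099 (837), with 0.0544% and 0.0872% of the lists above it. In 19q13.31 it lay from 44932381 to 44934049 (472) and from 44932711 to 44933853 (505), with 0.542% and 0.664% of the lists above it. This was also the widest peak of that cluster in both libraries, at 1669 and 1143 bp. In 19p13.2 and 19q13.41 the libraries named different peaks. The top untreated peak of 19p13.2, from 11889751 to 11890322, scored 456 and met a DHT peak scoring 88.2, while the top DHT peak, from 12395089 to 12395905, scored 368 and met an untreated one scoring 106. In 19q13.41 these were 52960286 to 52961411 untreated (504, meeting 112) and 52379351 to 52380313 after DHT (466, meeting 280). Above the top peaks of 19p13.2 stood 0.624% of the untreated list and 1.94% of the DHT list. For 19q13.41 these shares were 0.431% and 0.891%.

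The widest peaks reached a fraction of the width seen elsewhere on the chromosome, where the maximum was 7343 bp untreated and 7299 bp after DHT. In untreated cells the widest were 3123 bp in 19q13.12 (37852436 to 37855558), 2792 bp in 19q13.41 (52706860 to 52709651), 2154 bp in 19p13.2 (12142146 to 12144299) and 2021 bp in 19p12 (24218848 to 24220868). After DHT they were 3802 bp in 19p12 (19744529 to 19748330), 2941 bp in 19q13.12 (36640498 to 36643438), 2732 bp in 19q13.41 (52909627 to 52912358) and 1806 bp in 19p13.2 (11725640 to 11727445). The DHT maxima of 19p12, 19p13.2 and 19q13.12 lay within 50 kb of the start of their interval. All of these met a peak of the other library, over 22.7% to 89.0% of their width.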

How the data were processed

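The authors deposited, per ChIP library, peak positions and a score on an unstated scale; the score ran from 50 to 3100 in both lists. Peaks were called with MACS on hg19, per the peak and file names in the deposited lists. The version, settings, control, aligner and depth are each not given in the sources used here. The input library was not analysed here. Peaks overlapping an interval by 1 bp were counted, covered length was clipped to the interval, and overlap was counted at 1 bp, with NumPy 2.4.6, SciPy 1.17.1 and Python 3.11.15. On chromosome 19 the counts were those of bedtools 2.31.1. Intervals are 95%: Wilson for shares, exact binomial for ratios of peak numbers, and summed squared peak widths for covered length. Both ratio intervals were tried on simulated lists whose peaks were drawn independently of each other. The deposited lists share many positions, so how well the intervals hold for them was not tested. With 1 library per condition there was no test and no p-value. The regions named are, per cluster, the widest and highest-scoring peak, longest block and most covered window, and over the clusters the 5 largest gains and losses among blocks of at least 5 kb. The clusters and measures were chosen with earlier results of these data known. RefSeq gene order on GRCh38.p14 was used for names only; no hg19 sequence was used.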

Additional observations from a re-analysis of the deposited data

How the results depend on the processing

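Under all list settings run, the covered length ratio of each of the 5 clusters stayed below that of the rest of chromosome 19. The side of 1 on which the cluster ratio lay did not hold. Joined at 5 kb, it went from 0.958 to 1.10 over the 5 clusters, 1.24 in 19q13.12, 1.23 in 19q13.41 and 1.37 in the rest. With peaks under 1 kb alone, an alternative added after the data were seen, it was 1.06 over the clusters and 1.20 in 19q13.41. In the higher-scoring 50% of each list it was 0.884 over the clusters. The cause was not tested. In 19q13.31 it was 0.624 to 0.782 over the settings run, and without that cluster the other 4 stood at 0.977. Peak number ratios joined at 5 kb were 0.985 in the clusters and 1.11 in the rest.

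Coverage moved with the amount of sequence kept. In the higher-scoring 50% of the lists it was 4.72% untreated and 4.17% after DHT in the clusters, and 3.62% and 4.51% in the rest. A 1 kb join gave 9.06% and 8.69% against 6.07% and 7.56%, and a 5 kb join gave 23.2% and 25.6% against 9.81% and 13.42%. For the rest it was 6.15% and 7.57% without its longest peak-free stretch, 6.47% after DHT without the first 5 Mb, and 6.24% and 7.49% in the 1 Mb flanks.

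Overlapped shares of untreated and DHT peaks in the clusters were 51.7% and 50.9% in the higher-scoring 50%, 65.3% and 61.2% with a 1 kb join, 78.1% and 75.2% with a 5 kb join, and 50.7% and 52.5% when 50% of the peak had to be covered. In the rest they were 60.5% untreated in the higher-scoring 50%, 66.5% and 53.2% with a 1 kb join, 72.6% and 62.9% with a 5 kb join, and 54.3% and 45.4% at 50% covered. Windows higher and lower at 2-fold were 0% and 0% of the clusters and 14.1% and 2.69% of the rest. In the higher-scoring 50% they were 2.86% and 15.7% of the clusters and 38.4% and 11.8% of the rest. The order of the clusters by coverage changed only between neighbours in it. No paired analysis was possible because each condition has 1 library. The unknown depth limits every value.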
